A study of Homo sapiens with 15 samples.

Results

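The 10 genes described here are feedback targets of Wnt signalling: AXIN2, TCF7, LEF1, NKD1, NKD2, RNF43, ZNRF3, LGR5, SP5 and NOTUM. They were taken by name from a table of 23368 genes, and all 10 were found in it. No rule on their values was used, but earlier results of these data were known. RNA was sequenced from 3 clones, each of which was grown from a single cell and carries FLAG-tagged RBM47, an RNA-binding protein, under a promoter that doxycycline switches on. WT6 and WT10 cells carry the wild type protein, and MUT3 cells carry the mutant RBM47-I281fs, which is truncated from the third RNA recognition motif onwards. For this mutant the study reports little protein in spite of strong mRNA expression, and reads it as unstable and hence inactive. That protein measurement was made in cells that were not single-cell clones. Each clone was left without doxycycline (0 ng/ml) or given 1, 2.5, 5 or 25 ng/ml, with 1 library per clone and dose and therefore 15 libraries in all and no replicates. All clones have the promoter system in common, and MUT3 cells received the same doses of the antibiotic. The labels name the parental line as MDA231 for every clone, whereas the study's methods derive WT6 from CN34-BrM2, a brain metastatic derivative of another breast cancer line, and WT10 and MUT3 from 231-BrM2, a brain metastatic derivative of MDA231. Because each transgene is represented by 1 or 2 clones, a difference in level between clones compares these clones and no wider group.

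In canonical Wnt signalling a secreted Wnt ligand binds a Frizzled receptor together with LRP5 or LRP6, which stops a complex built on AXIN and APC from marking beta-catenin for destruction. Beta-catenin then joins the TCF/LEF proteins on DNA and their target genes are transcribed. Several of these targets act back on the pathway, and most of them dampen it, so their transcripts are widely used as a readout of its activity. MDA231 and its derivatives are triple negative, mesenchymal cell lines.

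The values are normalized counts, that is, the reads of a gene after division by the size factor of the library. The libraries held from 14955172 to 44771871 reads on genes, and 3 reads corresponded to a normalized count of between 1.19 and 4.09. The RBM47 count, which does not separate the transgene from the gene of the cell, was 258 in untreated WT6 cells and 10425 in those at 25 ng/ml, 168 and 19877 in WT10 cells and 73.8 and 22084 in MUT3 cells. It did not follow the dose in WT6 cells at 5 ng/ml (3966, below the 8094 at 2.5 ng/ml) and was nearly flat in MUT3 cells at 1 ng/ml (92.1). At 2.5 and 5 ng/ml it was 336 and 949 in MUT3 cells, against 2822 and 8134 in WT10 cells. Below 25 ng/ml, equal doses thus went with a lower RBM47 count in MUT3 cells than in the wild type clones. The 6 markers chosen for triple negative mesenchymal lines, VIM, CD44, AXL and CAV1 with the simple epithelial keratins KRT8 and KRT18, were above a mean of 10 in every clone and summed to between 121601 and 173346 per library. The 5 markers of luminal, hormone receptor positive breast cancer summed to between 1221 and 1939: ESR1, the oestrogen receptor, was below 10 in every clone, PGR in WT6 and MUT3 and FOXA1 in WT10 and MUT3, while ERBB2 and GATA3 were above 10 in every clone. The 5 markers of other cells summed to between 2321 and 5808, with PTPRC, PECAM1 and VWF below 10 in every clone, and CD68 and COL1A1, of macrophages and fibroblasts, above it. The part of these markers in the results below was not tested. The WT6 libraries at 5 and 25 ng/ml stood apart from the rest: relative to untreated WT6 cells, and with all genes split into quintiles of transcript length, the median log2 change was 0.60 and 0.58 in the shortest quintile and -0.41 and -0.46 in the longest. At 1 and 2.5 ng/ml these medians lay between -0.05 and 0.03 in WT6 cells.

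TCF/LEF proteins bind DNA through a short core, searched for here in 4 versions on both strands (CTTTGAA with its relative CTTTGAT, as well as CTTTGTA with its relative CTTTGTT), from 250 bases before to 50 bases after the start of each gene's canonical transcript (GENCODE on hg19). Of the 10 windows 3 held a match, those of SP5, NKD1 and TCF7, against 1932 of 18724 windows of the same length over all protein-coding genes matched to GENCODE (10.3%). The matches are shown because such cores are what TCF/LEF proteins recognise at their targets. Each line gives 30 bases of the + strand of hg19, which is the strand of all 3 genes, with the core in capitals.
SP5, chr2:171571688-171571717: agctttgtggaTTCAAAGgatttgctttcg
SP5, chr2:171571727-171571756: gagccgctattCTTTGATgattgggtagcg
SP5, chr2:171571752-171571781: tagcggcaaacTTCAAAGccataaatcttc
NKD1, chr16:50582212-50582241: accagccttgcCTTTGATgcgccgcaccgg
TCF7, chr5:133450377-133450406: gccggcggcgcCTTTGATgttccgacccgc
The SP5 window held 3 cores, which began at positions -148, -109 and -84 from the start site, the first and last of them on the opposite strand. The NKD1 core began at position -84 and the TCF7 core at position 17, inside the transcript. In the windows of the other 7 genes (AXIN2, LEF1, NKD2, RNF43, ZNRF3, LGR5 and NOTUM) these letters were not found. Elements farther from the start were not searched, and a match describes the sequence and not its use in these cells.

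Of the 10 genes, 5 reached a mean count of 10 or more in all clones and could be followed with dose everywhere: LEF1, ZNRF3, TCF7, SP5 and AXIN2. NKD1 passed that limit in WT6 cells only and RNF43 in MUT3 cells only. LGR5, NOTUM and NKD2 had too few reads in all 3 clones. For the 5 genes, the change with dose was estimated with limma in 1 fit over 12644 genes, as a slope of log2(normalized count + 1) on log2(dose + 1) for each clone, with Benjamini-Hochberg adjustment over all genes and a threshold of 0.05. The range from 0 to 25 ng/ml spans 4.70 units of log2(dose + 1), so that ZNRF3 in WT10 cells, with a slope of -0.21, has a fitted value at 25 ng/ml that is 0.507 times the untreated one. With 1 library per condition, the p-values measure the spread of libraries around these lines and not that between cultures. In such bulk libraries, a smaller share of cells with a transcript and less of it per cell cannot be told apart.

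ZNRF3, a membrane ubiquitin ligase that removes Frizzled receptors from the cell surface, fell with dose in both wild type clones. It lies at chr22:29279560-29453476 on the + strand of hg19, where an antisense gene, ZNRF3-AS1, overlaps it. In WT6 cells its normalized count was 476 untreated and 439, 344, 247 and 222 at 1, 2.5, 5 and 25 ng/ml. In WT10 cells it was 262 untreated and 287, 232, 215 and 137 at the same doses. In MUT3 cells it was 268 untreated and 212, 240, 221 and 243. The count went down at each step in WT6 cells, and in WT10 cells it was lowest at 25 ng/ml, whereas in MUT3 cells the untreated library was the highest and the rest followed no order. The count at 25 ng/ml was 0.466 times that of untreated cells in WT6 (95% counting interval 0.389 to 0.556), 0.522 times in WT10 (0.419 to 0.649) and 0.908 times in MUT3 (0.751 to 1.10). These intervals are exact binomial ones and cover counting error alone. The slope was -0.26 in WT6 cells (SE 0.04, limma adjusted p = 0.000223) and -0.21 in WT10 cells (SE 0.05, limma adjusted p = 0.00861). In MUT3 cells it was -0.01 (95% interval -0.11 to 0.09, limma adjusted p = 1.00). Averaged over WT6 and WT10, the slope differed from that of MUT3 by -0.22 (SE 0.06, limma adjusted p = 0.0125), and ZNRF3 was the only one of the 5 genes for which that difference passed the test. Of all genes, 24.6% passed it.

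The transcript of ZNRF3 used for its length measures 6872 bases, in the longest quintile, so the trend in the WT6 libraries at 5 and 25 ng/ml touches its slope. Its log2 change from untreated WT6 cells was -0.94 at 5 ng/ml and -1.10 at 25 ng/ml, which lies 0.53 and 0.64 below the medians of that quintile. At 2.5 ng/ml, where the quintiles were level, the count was 0.724 times that of untreated WT6 cells (counting interval 0.631 to 0.831). In MUT3 cells the ratio to untreated cells was 0.792 at 1 ng/ml (0.648 to 0.967), 0.897 at 2.5 ng/ml (0.744 to 1.08) and 0.827 at 5 ng/ml (0.685 to 0.999). Such an interval can thus lie below a ratio of 1 at a single dose in that clone too. After the dependence on length and GC content had been taken out of every library, the slope was -0.17 in WT6 cells (limma adjusted p = 0.000392) and -0.17 in WT10 cells (adjusted p = 0.00362). Without the WT6 libraries at 5 and 25 ng/ml, 3 WT6 libraries were left and the WT6 slope was -0.25 (limma adjusted p = 0.178).

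RNF43, the close relative of ZNRF3 with the same activity on Frizzled receptors, was detected well in MUT3 cells alone. Its normalized count there was 17.5, 18.9, 19.8, 23.0 and 18.9 from 0 to 25 ng/ml, against 1.36 to 4.26 in WT6 cells and 0 to 4.14 in WT10 cells. The levels of MUT3 and WT6 were not tested against each other. The reads behind these values summed to 94 in MUT3, 14 in WT6 and 13 in WT10. Over all 19406 genes with a read, the level in WT10 lay below that in MUT3 by limma (log2 difference -2.91, SE 0.30, adjusted p = 1.69e-06) and by edgeR (-3.34, adjusted p = 2.00e-07). Among all genes, 36.1% passed this comparison of levels by limma and 35.4% by edgeR. RNF43 lies at chr17:56431037-56494956 on the - strand and overlaps TSPOAP1-AS1 on the other. No slope of RNF43 with dose passed the test in any clone (limma adjusted p from 0.332 to 1, edgeR adjusted p from 0.395 to 1).

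LGR5 (chr12:71833578-71980090, + strand) encodes a receptor for R-spondins, which keep RNF43 and ZNRF3 away from Frizzled receptors. Its normalized count was 9.86, 8.24, 5.12, 2.72 and 2.49 from 0 to 25 ng/ml in WT6 cells, between 3.11 and 8.34 in WT10 cells and between 2.76 and 5.00 in MUT3 cells. The WT6 libraries held 9 reads untreated and 2 at 25 ng/ml, and the ranges of all 3 clones overlap. The WT6 slope passed by limma over all genes with a read (-0.39, adjusted p = 0.0282) and did not by edgeR (-0.49, adjusted p = 0.0655), where 39.1% and 37.2% of all genes passed.

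**Figure D1:**
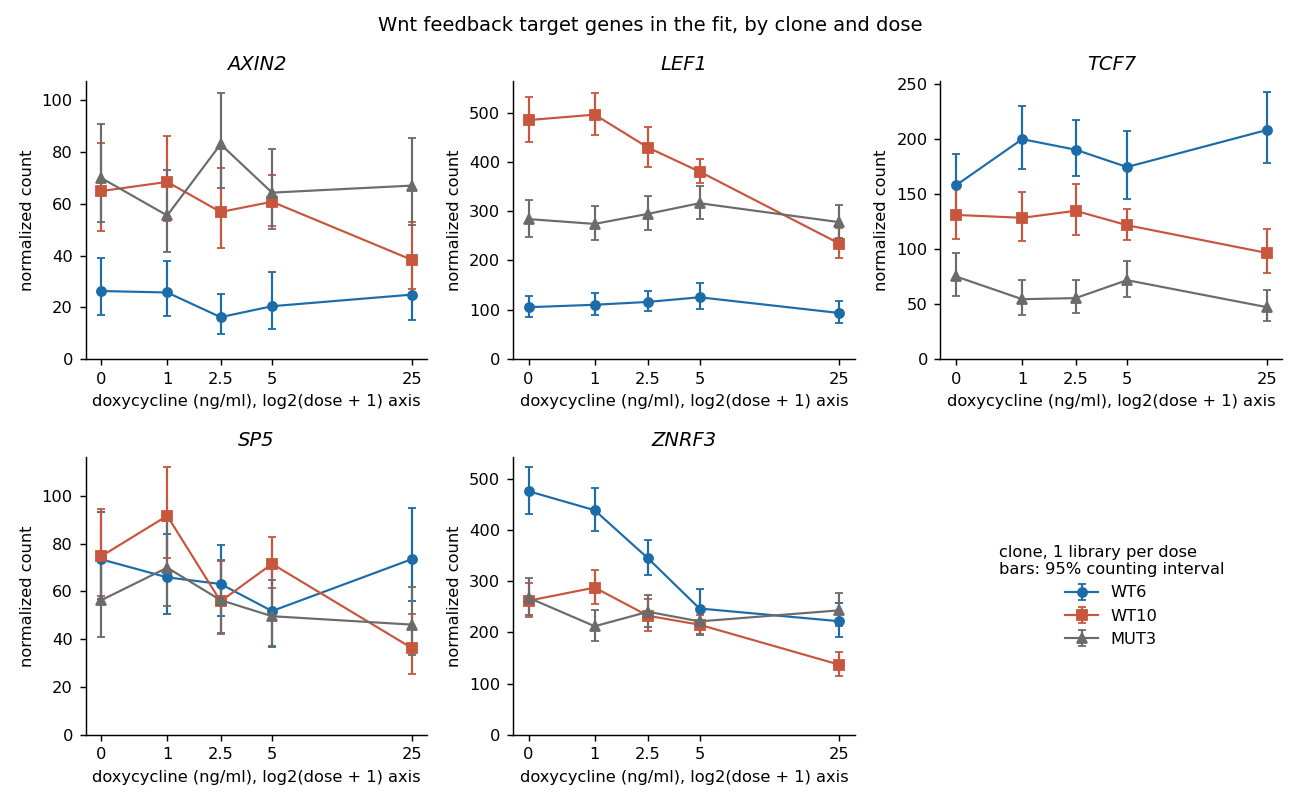
Normalized count (vertical axes, from 0) against doxycycline in ng/ml (horizontal axes, spaced by log2(dose + 1)) for the 5 genes with enough reads. Points are single libraries of WT6 (circles), WT10 (squares) and MUT3 cells (triangles), and bars are exact 95% counting intervals. LEF1 in WT10 cells goes from 485 to 234 and ZNRF3 in WT6 cells from 476 to 222.

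LEF1 and TCF7 encode transcription factors of the TCF/LEF family, which carry beta-catenin to DNA and are themselves Wnt targets in many tissues. LEF1 fell with dose in WT10 cells, from 485 untreated through 496, 429 and 380 to 234 at 25 ng/ml. In WT6 cells it was 105 untreated and 110, 116, 125 and 93.4 with doxycycline, and in MUT3 cells it was 284 untreated and 274, 295, 316 and 278. The WT10 libraries thus spanned a wide range and were lowest at 25 ng/ml, below every MUT3 library, while those of WT6 and of MUT3 stayed within a narrow range and peaked at 5 ng/ml. LEF1 at 25 ng/ml was 0.483 times its untreated count in WT10 (counting interval 0.410 to 0.568), 0.888 times in WT6 (0.648 to 1.21) and 0.978 times in MUT3 (0.816 to 1.17). The slope was -0.23 in WT10 cells (SE 0.04, limma adjusted p = 0.000729), against -0.03 in WT6 cells (95% interval -0.14 to 0.08, adjusted p = 0.632) and 0.00 in MUT3 cells (-0.08 to 0.08, adjusted p = 1.00). The WT10 slope differed from that of MUT3 by -0.23 (SE 0.05, limma adjusted p = 0.0206). It also differed from the WT6 slope, which lay 0.20 higher (SE 0.06, limma adjusted p = 0.0477), a call that was lost in 13 of the 15 fits that left out a single library. LEF1 lies at chr4:108968701-109090112 on the - strand, and LEF1-AS1 overlaps it on the other.

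TCF7 did not pass the test of its slope in any clone. Its normalized count from 0 to 25 ng/ml was 158, 200, 190, 174 and 208 in WT6 cells and 131, 128, 135, 122 and 96.4 in WT10 cells. MUT3 cells gave 75.0, 54.4, 55.4, 71.7 and 47.1. The clones did not overlap, where 75.3% of all genes differed in fitted level between WT6 and WT10 and 48.3% between WT10 and MUT3. Within WT10 and MUT3 cells the library at 25 ng/ml was the lowest, while in WT6 cells it was the highest. TCF7 at 25 ng/ml was 1.32 times its untreated count in WT6 (counting interval 1.05 to 1.66), 0.736 times in WT10 (0.556 to 0.973) and 0.628 times in MUT3 (0.417 to 0.940). The slopes were 0.06 in WT6 cells (limma adjusted p = 0.233), -0.09 in WT10 cells (adjusted p = 0.195) and -0.10 in MUT3 cells (adjusted p = 1.00). TCF7 lies at chr5:133450372-133487556 on the + strand and shares part of its span with SKP1 on the other.

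SP5 encodes a zinc finger repressor that is induced directly by beta-catenin and TCF/LEF, and its start site is the one beside the 3 cores shown above. Its normalized count was 74.6, 91.6, 55.9, 71.5 and 36.3 from 0 to 25 ng/ml in WT10 cells. In WT6 cells it was 73.4, 65.9, 63.1, 51.8 and 73.5, and in MUT3 cells 56.3, 69.9, 56.3, 49.6 and 46.1. The clones overlapped, and the WT10 library at 25 ng/ml was the lowest of all 15. SP5 at 25 ng/ml was 0.486 times its untreated count in WT10 (counting interval 0.314 to 0.740), 1.00 times in WT6 (0.693 to 1.44) and 0.819 times in MUT3 (0.528 to 1.27). It fell in WT10 cells by a narrow margin, with a slope of -0.22 (SE 0.07, limma adjusted p = 0.0441), and the call held in 7 of the 15 fits that left out a single library. The adjusted p was 0.0564 with the length and GC trends taken out. The slopes were -0.01 in WT6 cells (limma adjusted p = 0.943) and -0.09 in MUT3 cells (adjusted p = 1.00), and neither differed from that of WT10 beyond the threshold (limma adjusted p = 0.142 and 0.501). The length quintile of SP5 rose in the WT6 libraries at 5 and 25 ng/ml (median log2 change 0.16 and 0.20). With the length and GC trends taken out, the WT6 slope of SP5 was -0.13 (limma adjusted p = 0.159). SP5 lies at chr2:171571847-171574588 on the + strand, and ERICH2-DT overlaps it on the other.

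AXIN2, a scaffold of the complex that destroys beta-catenin and the most commonly used transcript readout of the pathway, did not pass the test in any clone. Its normalized count from 0 to 25 ng/ml was 64.9, 68.5, 56.8, 60.8 and 38.3 in WT10 cells. It was 70.0, 55.5, 83.0, 64.3 and 67.0 in MUT3 cells and 26.3, 25.7, 16.2, 20.4 and 24.9 in WT6 cells. The WT10 library at 25 ng/ml was below every other library of WT10 and MUT3, and all 5 WT6 libraries lay lower still. The WT10 count at 25 ng/ml was 0.591 times the untreated one (counting interval 0.381 to 0.904), against 0.957 times in MUT3 (0.658 to 1.40) and 0.947 times in WT6 (0.496 to 1.79). The slope of -0.16 in WT10 cells (95% interval -0.30 to -0.01) had an unadjusted p of 0.0336 and an adjusted p of 0.113 by limma, while the slopes were 0.00 in MUT3 cells (-0.13 to 0.13) and -0.02 in WT6 cells (-0.21 to 0.17). The WT6 libraries held between 15 and 25 AXIN2 reads each, which leaves changes within that interval undetectable at this depth. The study measured AXIN2 by RT-PCR in WT6 cells given recombinant WNT3A. It reports that doxycycline dampened the induction, at least partly through DKK1. The sample titles here name doxycycline and no added Wnt ligand, so these counts do not measure that response. AXIN2 lies at chr17:63524681-63557766 on the - strand.

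NKD1 and NKD2 encode relatives that bind Dishevelled, the protein that relays the signal from Frizzled receptors, and inhibit it. NKD1 (chr16:50582307-50683160, + strand) was seen well in WT6 cells alone, at 20.8, 13.4, 15.3, 14.99 and 22.4 from 0 to 25 ng/ml, against 0 to 2.89 in WT10 cells and 0 to 2.22 in MUT3 cells. The reads summed to 79 in WT6, 6 in WT10 and 3 in MUT3, and the levels of WT6 and MUT3 were not tested against each other. Over all genes with a read, its level in WT6 lay above that in WT10 by limma (log2 difference 3.27, SE 0.37, adjusted p = 1.18e-06) and by edgeR (4.22, adjusted p = 1.26e-07), a comparison that 60.2% and 58.7% of genes passed. Its slope in WT6 cells was 0.06 (limma adjusted p = 0.812). NKD2 (chr5:1008917-1039058, + strand) had 1 read in 1 WT6 library and 0 in the other 14 libraries, where 3 reads, the limit taken for a count of 0, correspond to a normalized count of 1.19 to 4.09. NOTUM (chr17:79910383-79919716, - strand), a secreted enzyme that removes the lipid from Wnt ligands, had between 0 and 3 reads per library and a normalized count of at most 3.25. No change with dose could be detected for NKD2 or NOTUM at this depth.

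**Figure D2:**
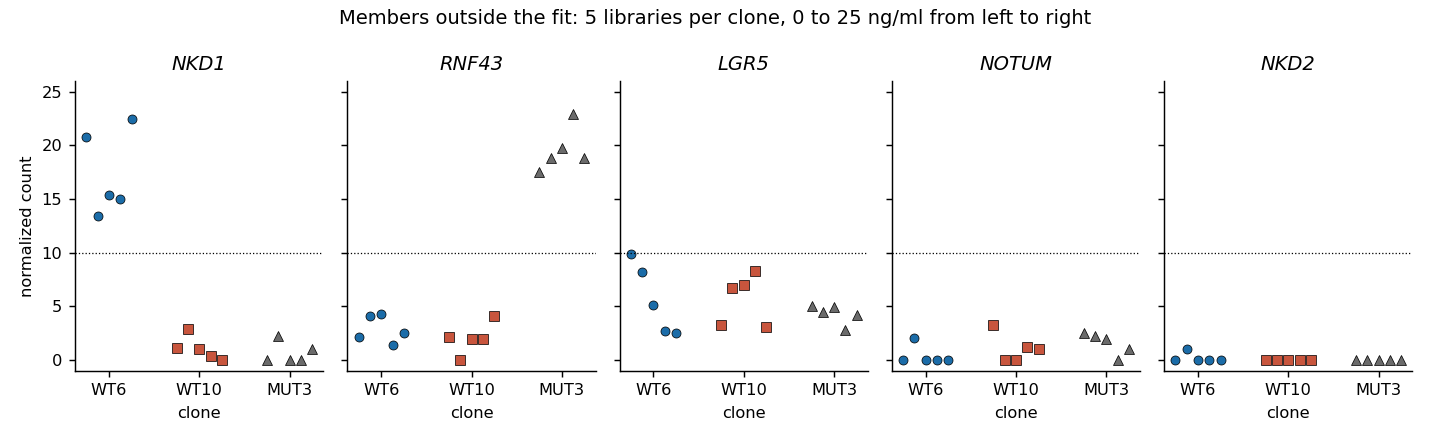
Normalized count (vertical axis, from 0) of the 5 genes that were not in the fit. Each point is 1 library, with the 5 doses of a clone side by side from 0 to 25 ng/ml, and the dotted line marks a count of 10. NKD1 lies above the line in WT6 cells only and RNF43 in MUT3 cells only.

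Across the 5 genes in the fit, ZNRF3 alone passed in WT6 cells, where it fell (1 of 5), while of all 12644 genes 57.5% passed in that clone and 28.3% fell. LEF1, ZNRF3 and SP5 fell in WT10 cells (3 of 5), where 20.0% of all genes passed and 9.83% fell. In MUT3 cells 0 of 5 passed by limma, none had an unadjusted p under 0.05, and edgeR and DESeq2 also called 0 of 5. Of all genes, 0 of 12644 (0%) passed in MUT3 cells by limma, with 295 at an unadjusted p under 0.05. By edgeR 1 passed and by DESeq2 8. RBM47 itself, whose count in MUT3 cells rose from 73.8 untreated to 22084 at 25 ng/ml, also missed the threshold (limma adjusted p = 0.0517). A missing call in that clone thus does not show that a gene did not respond. The median slope of the 5 genes was -0.02 in WT6, -0.21 in WT10 and -0.01 in MUT3 cells, beside medians over all genes of 0.01, 0.00 and 0.00. For the mean wild type slope against MUT3, 1 of 5 passed (ZNRF3) and 24.6% of all genes did, 14.6% with the lower slope in wild type. For WT10 against MUT3, 1 of 5 passed (LEF1) and 5.62% of all genes did. For WT6 against WT10, 1 of 5 passed (LEF1) and 14.4% of all genes did. These comparisons share libraries of WT10 and MUT3 and are not independent of each other.

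**Figure D3:**
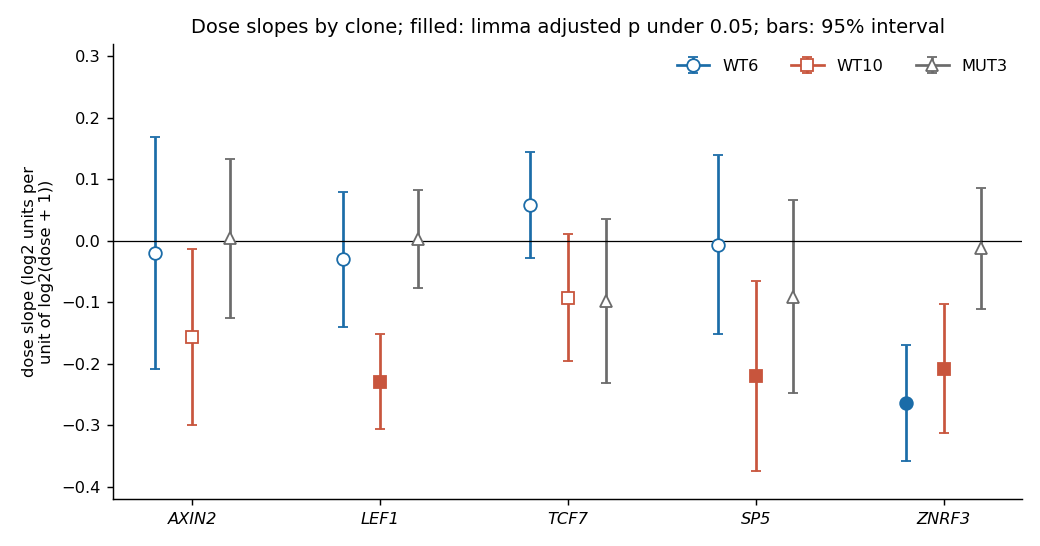
Slope of log2(normalized count + 1) on log2(dose + 1) (vertical axis) for 5 genes in WT6 (circles), WT10 (squares) and MUT3 cells (triangles), with 95% intervals. Filled symbols have a limma adjusted p under 0.05: ZNRF3 in WT6, and LEF1, SP5 and ZNRF3 in WT10.

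The slopes in WT10 cells rested on the library at 25 ng/ml. Without it, LEF1 had a slope of -0.14 (limma adjusted p = 0.266), ZNRF3 one of -0.13 (adjusted p = 0.483) and SP5 one of -0.10 (adjusted p = 0.732), and none of the 5 genes passed. This held for the whole clone, since only 6 of 12644 genes passed in WT10 cells when that library was left out. LEF1 and ZNRF3 passed in each of the other 14 fits that left out a single library. The fall of ZNRF3 in WT6 cells passed in all 15, with slopes from -0.35 to -0.24. The difference of ZNRF3 between wild type and MUT3 cells missed the threshold without the WT10 library at 25 ng/ml (-0.18, limma adjusted p = 0.0912) and without the MUT3 library at 25 ng/ml (-0.16, adjusted p = 0.379). That of LEF1 between WT10 and MUT3 did so without either of these libraries (-0.14, adjusted p = 0.381, and -0.29, adjusted p = 0.394) and without untreated MUT3 cells (-0.23, adjusted p = 0.0927).

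**Figure D4:**
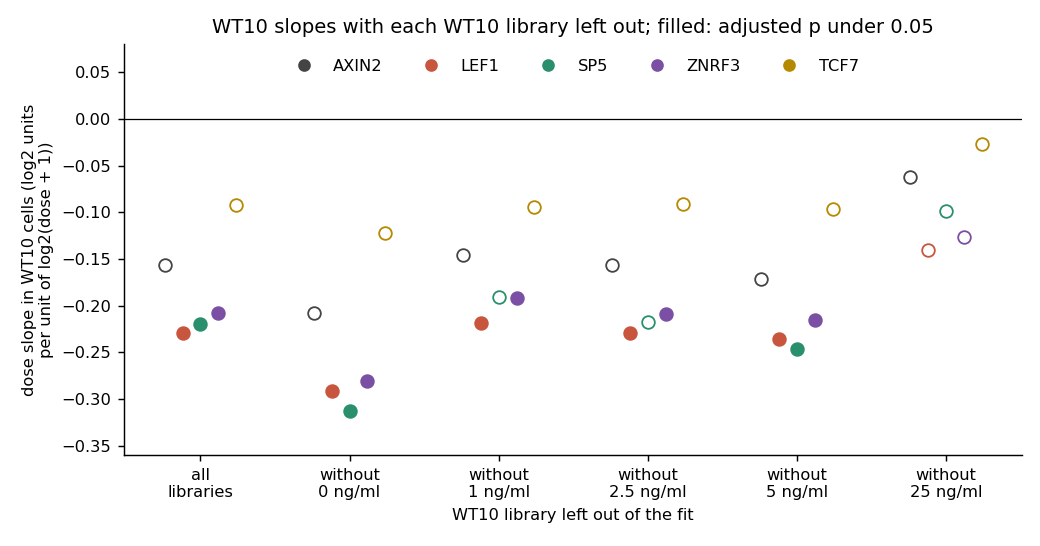
Dose slope in WT10 cells (vertical axis, log2 units per unit of log2(dose + 1)) of AXIN2, LEF1, SP5, ZNRF3 and TCF7, with all libraries and with each WT10 library left out (horizontal axis). Filled points have a limma adjusted p under 0.05, and none is filled without the 25 ng/ml library.

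The order of the 5 genes by level differed between the clones. Levels were compared between genes as the mean normalized count per kilobase of transcript over the 5 libraries of a clone, with the SD over doses. In WT10 cells LEF1 was the highest (113 ± 29.6), followed by TCF7 (37.2 ± 4.65), ZNRF3 (33.0 ± 8.35) and SP5 (32.2 ± 10.2), which lay within their spread of each other, and AXIN2 (13.6 ± 2.76). In MUT3 cells LEF1 was again the highest (80.9 ± 4.72), then ZNRF3 (34.5 ± 3.13) and SP5 (27.2 ± 4.45), while TCF7 (18.5 ± 3.66) and AXIN2 (16.0 ± 2.35) lay within their spread of each other. In WT6 cells TCF7 (56.6 ± 6.12) and ZNRF3 (50.3 ± 16.4) led, with means within their spread of each other. That spread holds the change with dose. From 0 to 25 ng/ml the normalized count of ZNRF3 went from 476 to 222 and that of TCF7 from 158 to 208. SP5 (32.01 ± 4.38) and LEF1 (30.8 ± 3.33) also lay within their spread of each other, with AXIN2 (5.33 ± 1.01) again the lowest.

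Between WT6 and WT10 cells the fitted level differed for 4 of the 5 genes, where 75.3% of all genes did. On the log2 scale, LEF1 was lower in WT6 (difference -1.83, SE 0.10, limma adjusted p = 1.34e-10), as was AXIN2 (-1.31, SE 0.17, adjusted p = 4.65e-06). TCF7 was higher in WT6 by 0.60 (SE 0.10, limma adjusted p = 4.91e-05) and ZNRF3 by 0.58 (SE 0.10, adjusted p = 6.02e-05). SP5 gave a difference of 0.04 (95% interval -0.28 to 0.36, limma adjusted p = 0.809). The transcription factors LEF1 and TCF7 thus differed in opposite directions between the wild type clones. Between WT10 and MUT3 cells, which the methods derive from the same line, 2 of the 5 genes differed in level and 48.3% of all genes did. TCF7 was higher in WT10 by 1.01 (SE 0.12, limma adjusted p = 6.14e-06) and LEF1 by 0.44 (SE 0.08, adjusted p = 0.000376), while AXIN2 (-0.24), SP5 (0.19) and ZNRF3 (-0.10) had adjusted p-values from 0.164 to 0.446.

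The genes whose counts most resembled each of the 5 were found by Pearson's r of log2(normalized count + 1), centred within each clone, over the 15 libraries, as a description. ZNRF3 was closest to CHMP7 (r = 0.976), LAS1L (0.972) and SLC5A6 (0.971), and LEF1 to IGFBP3 (0.952), CPSF4 (0.924) and ACTR5 (0.910). SP5 was closest to CBLB (0.911), DDX19A (0.863) and NINL (0.809), and AXIN2 to BDH1 (0.856), EEFSEC (0.853) and TCEA2 (0.847). TCF7 had the weakest likeness, led by HIST1H3C (0.728), PSTPIP2 (0.725) and FBXO4 (0.712). Among the 5 themselves r ran from 0.203 (TCF7 with ZNRF3) to 0.617 (AXIN2 with SP5), and none was among the 3 closest of another. The libraries share a dose series, a size factor each and, in WT6, the length trend, so these coefficients are not independent of one another.

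Of 111 other genes of the pathway, listed by role, 62 had enough reads to be tested, and more of them fell than rose. In WT6 cells 33 fell and 5 rose, in WT10 cells 18 fell and 3 rose, and in MUT3 cells none did either by limma. Of all genes, 57.5% passed and 28.3% fell in WT6 cells, and 20.0% passed and 9.83% fell in WT10 cells. Their median slope was -0.11, -0.05 and 0.02 in the 3 clones. In both wild type clones 15 of the 62 passed in the same direction (24.2%), 13 falling and 2 rising, beside 14.4% of all genes, of which 7.34% fell in both and 7.02% rose. With the length and GC trends taken out, 32 fell and 9 rose in WT6 cells, and 20 fell and 6 rose in WT10 cells, where 58.6% of all genes passed and 31.5% fell in WT6 cells, and 36.1% passed and 20.6% fell in WT10 cells. Without the WT10 library at 25 ng/ml 0 passed in WT10 cells, where 0.0475% of all genes did. Without the WT6 libraries at 5 and 25 ng/ml 2 rose and 0 fell in WT6 cells, where 1.44% of all genes passed.

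Each list of the pathway is short, and its counts stand beside the same shares of all genes, 28.3% falling in WT6 cells and 9.83% in WT10 cells. The list of ligands, which also holds PORCN, WLS and RSPO1, had 8 genes tested. Of these, 2 rose (WNT10B and PORCN) and 2 fell in WT6 cells, and 2 fell in WT10 cells. WNT7B fell in both wild type clones, from 55.9 to 11.2 between 0 and 25 ng/ml in WT6 cells and from 517 to 179 in WT10 cells, against 241 and 334 in MUT3 cells. Its slopes were -0.43 in WT6 cells (limma adjusted p = 0.000729) and -0.34 in WT10 cells (adjusted p = 7.28e-05). Of 13 receptors and coreceptors, 10 fell in WT6 cells and 5 in WT10 cells, and none rose. LRP5, the coreceptor named above, had slopes of -0.32 in WT6 and -0.15 in WT10 cells, and FZD7, a Frizzled receptor, of -0.21 and -0.14. Of the secreted antagonists, 2 were tested and both rose in both wild type clones. DKK1, which blocks LRP5 and LRP6 and is itself a Wnt target, rose from 13399 to 40994 in WT6 cells and from 7579 to 26822 in WT10 cells, against 5945 and 5862 in MUT3 cells. DKK3, a related secreted protein, rose from 24.1 to 146 in WT6 cells and from 31.4 to 123 in WT10 cells, against 25.0 and 16.8 in MUT3 cells.

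Of 17 transducers and parts of the destruction complex, 8 fell and 1 rose in WT6 cells and 3 fell in WT10 cells. DVL2, a Dishevelled protein (slopes -0.19 in WT6 and -0.16 in WT10), and the casein kinases CSNK1E (-0.19 and -0.13) and CSNK1A1 (-0.21 and -0.12) were those that fell in both. CTNNB1, which encodes beta-catenin, fell in WT6 cells (-0.15, limma adjusted p = 0.000622) and had a slope of -0.08 in WT10 cells (adjusted p = 0.0729), which passed with the length and GC trends taken out (limma adjusted p = 0.00310). Of 10 nuclear effectors, 6 fell in WT6 cells and 3 in WT10 cells, among them the coactivators CREBBP (-0.33 and -0.15) and BCL9 (-0.14 and -0.16), whose WT6 call was lost with the length and GC trends taken out (limma adjusted p = 0.165). Of 12 genes listed as other targets, 7 fell in WT6 cells, and 5 fell and 1 rose in WT10 cells. The 1 that rose was TNIK (slope 0.25, limma adjusted p = 0.0307). FOSL1, a subunit of AP-1, fell in both (-0.17 and -0.17), as did BIRC5, an inhibitor of apoptosis (-0.15 and -0.13). CCND1, which encodes cyclin D1, fell in WT6 cells (-0.12, limma adjusted p = 0.000486) and had a slope of -0.04 in WT10 cells (adjusted p = 0.233). MYC, among the best known targets, had slopes of 0.00 in WT6 (limma adjusted p = 0.951) and -0.04 in WT10 cells (adjusted p = 0.275).

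**Figure D5:**
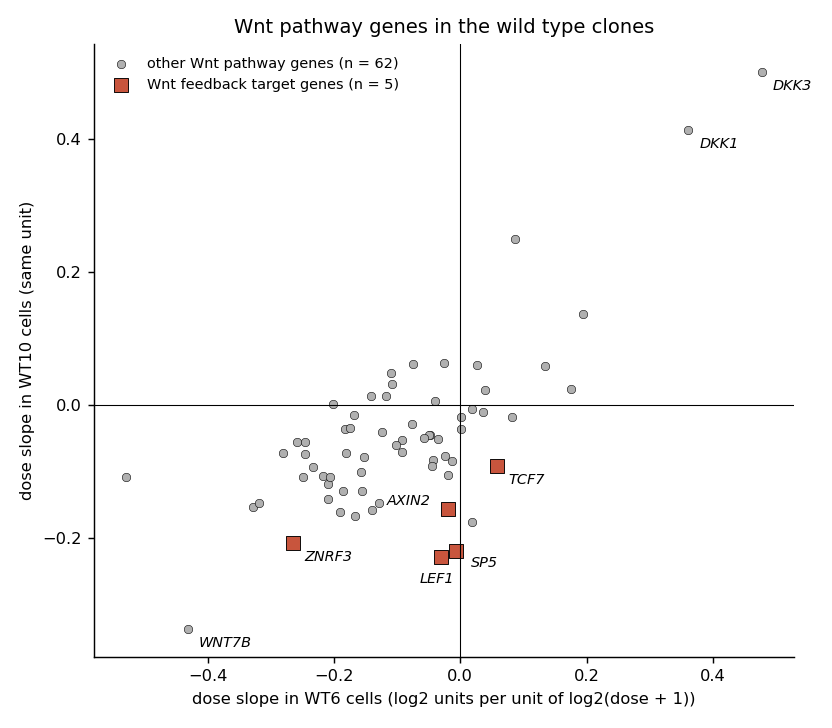
Dose slope in WT10 cells (vertical axis) against that in WT6 cells (horizontal axis), both in log2 units per unit of log2(dose + 1). Squares are the 5 feedback targets and grey points the 62 other pathway genes tested, of which 40 lie below 0 in both clones and 8 above 0 in both, with DKK1 and DKK3 at the upper right and WNT7B at the lower left.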

How the data were processed

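Per the labels and the study's methods, polyA-selected RNA was made into TruSeq libraries and sequenced in paired-end runs. The authors used STAR for mapping to hg19, HTSeq 0.5.4 at its defaults for counting by gene, and DESeq for normalization. The annotation and the strandedness of the libraries are not given in the sources used here, so reads of overlapping antisense genes may not be separated. The deposited values are a normalized signal, reads divided by a size factor. When each column was divided by its value for 1 read, 100% of values were whole within 0.001 reads. The 5 HTSeq tallies were left out: reads that HTSeq assigned to no gene made up 56.5% to 59.6% of a library and ambiguous ones 0.527% to 0.617%. Because the strandedness is not given, reads outside genes and reads on the other strand of a gene cannot be told apart in the first tally.

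The 10 genes, the pathway lists and the tests were chosen with earlier results of these data known. Groups came from the sample labels. The table's symbols were matched to GENCODE release 44 on hg19 for positions, transcript length and GC content (91.9% of genes, and 95.8% of the 12644 in the fit). limma 3.58.1 was run in R 4.3.3 on log2(normalized count + 1) with vooma precision weights, over genes with a mean of at least 10 in each clone. The fit had 6 coefficients, 1 level and 1 slope per clone on log2(dose + 1), and 9 residual degrees of freedom (15.1 after moderation). Levels were compared at the mean of log2(dose + 1). edgeR 4.0.16 and DESeq2 1.42.0 on the recovered reads were alternatives, and both edgeR and limma were run on all genes with a read for those under the limit, an alternative chosen after seeing the data. Intervals of ratios and counts are exact 95% ones and cover counting error only. Pathway genes were named where the slope passed with the same sign in both wild type clones, keeping the 12 whose smaller slope was largest, with DKK1, CTNNB1, MYC, CCND1 and RBM47 added. Alternatives were another pseudocount, filter, scaling, dose coding, tool, fit per clone, removal of length and GC trends (splines with 4 degrees of freedom) and leaving out libraries. Python 3.11.15, numpy 2.4.6, scipy 1.17.1, pandas 2.3.3 and matplotlib 3.10.9 were used.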

Additional observations from a re-analysis of the deposited data

Results flagged for a closer look

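For 2 of the genes, the change with dose differed between clones by a test of the difference itself. Of all genes, 24.6% passed for the mean wild type slope against MUT3, 5.62% for WT10 against MUT3 and 14.4% for WT6 against WT10. The mean slope of ZNRF3 in the wild type clones differed from its slope in MUT3 cells by -0.22 log2 units per unit of log2(dose + 1) (limma adjusted p = 0.0125), and this passed in 13 of the 15 fits that left out a single library. The slope of LEF1 in WT10 cells differed from that in MUT3 cells by -0.23 (limma adjusted p = 0.0206), which passed in 12 of those 15 fits, and the slope in WT6 cells lay 0.20 above that in WT10 cells (limma adjusted p = 0.0477), which passed in 2 of them. None of these differences passed with any doxycycline set against none or with the RBM47 count in place of the dose. No group held replicate libraries, so no single library was tested as an outlier of its group.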

How the results depend on the processing

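Over 14 alternatives, 487 of 535 gene values kept their direction and their side of the threshold, 29 lost the call, 1 gained it and 18 changed sign. Leaving out each library in turn gave 545 of 600 unchanged in this sense, 28 lost, 4 gained and 23 of the other sign. With any doxycycline set against none, or with the RBM47 count in place of the dose, 0 slopes and 0 slope differences of the 5 genes passed, against 1 in WT6 and 3 in WT10 cells by dose, and with any doxycycline against none 1 of 5 levels differed between WT10 and MUT3 (TCF7). The cause was not tested. The share of all genes that passed is not given for these settings, nor for those below except where stated. These counts are therefore no result about the 5 genes alone. Without all 25 ng/ml libraries, 0 slopes passed in WT10 cells, and 0 differences for the mean of the wild type clones against MUT3, WT10 against MUT3 and WT6 against WT10. The difference of LEF1 between WT6 and WT10 was also lost (0 of 5) with no filter, with TMM scaling and with the length and GC trends removed. Without the WT6 libraries at 5 and 25 ng/ml, an alternative added after the data were seen, 0 slopes passed in WT6 cells, 0 differed between WT6 and WT10, and 2 differed between WT10 and MUT3 (LEF1 and ZNRF3). Fewer libraries were left there, and of all genes 182 passed in WT6 cells in place of 7272 and 4915 in WT10 cells in place of 2527, which became 4368 with the length and GC trends removed. Leaving out single libraries, the number of genes passing ran from 0 to 3 for the WT10 slope, 0 to 2 for the mean wild type slope against MUT3, 0 to 2 for WT10 against MUT3 and 0 to 1 for WT6 against WT10, and it stayed at 1 for the WT6 slope, 0 for MUT3, and 4 and 2 for the levels.

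None of the values that changed sign passed the test in either setting. In WT6 cells LEF1 had a slope of 0.0713 for any doxycycline, 0.0961 without the 25 ng/ml libraries and 0.0766 without the WT6 libraries at 5 and 25 ng/ml, and AXIN2 one of 0.0275 with the length and GC trends removed. In MUT3 cells AXIN2 had -0.00204 by edgeR, -0.0677 for any doxycycline and -0.00878 with length and GC trends removed, where LEF1 had -0.00641, and ZNRF3 had 0.000202 against the RBM47 count. For WT10 against MUT3, TCF7 had -0.00303 against the RBM47 count. For WT6 against WT10, AXIN2 had -0.0429 for any doxycycline, -0.14 without the 25 ng/ml libraries and -0.18 without the WT6 libraries at 5 and 25 ng/ml, and SP5 had -0.0772 without the 25 ng/ml libraries. The level of SP5 in WT6 against WT10 was -0.0416 by edgeR, -0.19 without the 25 ng/ml libraries and -0.0647 without the WT6 libraries at 5 and 25 ng/ml, and that of ZNRF3 in WT10 against MUT3 was 0.0792 without the 25 ng/ml libraries. Leaving out single libraries, the WT6 slope ran from -0.20 to 0.0473 for AXIN2, -0.0698 to 0.0960 for LEF1 and -0.18 to 0.0505 for SP5, and the MUT3 slope from -0.0260 to 0.0238 for AXIN2, -0.0047 to 0.0640 for LEF1 and -0.0806 to 0.0399 for ZNRF3. The differences ran from -0.11 to 0.0380 for SP5 (mean wild type against MUT3), -0.0571 to 0.0707 for TCF7 (WT10 against MUT3), and -0.0455 to 0.20 for AXIN2 and -0.15 to 0.0163 for ZNRF3 (WT6 against WT10), and those of level from -0.13 to 0.14 for SP5 (WT6 against WT10) and -0.16 to 0.0059 for ZNRF3 (WT10 against MUT3). No paired analysis was possible because the labels carry no replicate numbers and each condition has 1 library.

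There is 1 library per clone and dose. Depth limits AXIN2 in WT6 cells and leaves NKD2, LGR5 and NOTUM without a usable dose series.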
